A study of Mus musculus with 9 samples.

Results

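Ribosome-bound RNA of endothelial cells was set against total RNA of the same tissue in 6 of the 9 libraries of the series: the 3 immunoprecipitated (IP) and the 3 input libraries whose RNA was extracted by the investigator with the initials JL. The libraries were chosen by their titles alone. All mice were untreated adults of the line Abcb1a-EGFP/Rpl10a ES3026, and the tissue was cerebral cortex. The transgene of this line places under Abcb1a control, a drug efflux pump gene, a fusion of the fluorescent protein EGFP and the ribosomal protein Rpl10a. The IP and the input groups therefore carry the same transgene, of a single line, and differ in whether tagged polysomes were pulled down with antibodies against EGFP. The labels give no sex and do not say whether replicate libraries were made from separate mice, so the p-values measure spread among libraries, part of which may be technical.

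Translating ribosome affinity purification (TRAP) isolates the RNA that tagged ribosomes carry, here those of cells in which Abcb1a regulatory sequence is active. Brain endothelial cells line the capillaries of the cortex, form the blood-brain barrier through tight junctions and transporters, and receive shear stress from the blood on one face and signals from pericytes and astrocytes on the other. Beyond the barrier itself they are known for signalling through G proteins and small GTPases, for lipid mediators such as prostacyclin and sphingosine 1-phosphate, and for innate immune sensing.

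The IP libraries held 31987470 to 37813545 gene counts and the inputs 42723147 to 46598478. Levels are given as CPM, counts scaled for library size and composition, in the order of replicates 1, 2 and 3 or as mean ± SD (n = 3 in each group), and differences as log2 fold changes of IP over input ± SE. A gene is called higher or lower when its adjusted p was under 0.05 in edgeR's quasi-likelihood test with Benjamini-Hochberg adjustment over the 17357 genes tested. A count of 3 in a library corresponds to 0.0868 to 0.103 CPM in the IPs and 0.0586 to 0.0651 CPM in the inputs, and ratios on levels near these carry large counting error. The row of the ribosomal RNA precursor Rn45s took 16.9 ± 1.09% of gene counts in the IPs and 5.10 ± 0.236% in the inputs. Reads ambiguous between overlapping genes, which entered no gene, were 2.09 ± 0.0462% in the IPs and 10.8 ± 0.519% in the inputs. IP 1 and input 1 stood apart in carrying counts of Y-linked genes: Ddx3y had 2298 and 3249 counts in them and at most 1 in each of the other libraries. The X-linked Xist had 51, 196 and 177 counts in IPs 1, 2 and 3 and 1, 986 and 1156 in inputs 1, 2 and 3. Input 1 therefore did not come from the same mice as inputs 2 and 3. IP 1 held RNA of male origin that IPs 2 and 3 lacked. Since IP 1 held Xist counts too, whether it shared any mice with them cannot be told.

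The endothelial markers were far higher in the IPs. Abcb1a (chromosome 5, 8660077 to 8748575, mm10) stood at 453, 489 and 453 CPM in the IPs but at 1.89, 2.71 and 1.84 CPM in the inputs (log2 fold change 7.75 ± 0.16, adjusted p = 2.41e-09). The tag is under Abcb1a control, so the rise of Abcb1a was built into the design. The markers Abcb1a, Cldn5, Slc2a1, Ly6a and Pecam1 were all 5 higher, with a summed level of 5823 to 6290 CPM in the IPs against 39.2 to 41.8 CPM in the inputs. Lists of markers of other cells mostly went the other way. All 12 neuron genes were lower (summed level 2136 to 2725 CPM in the IPs, 16303 to 17141 CPM in the inputs), as were 10 of 12 oligodendrocyte genes (409.7 to 580.5 against 2471 to 2871 CPM), 9 of 10 microglia genes (26.5 to 30.6 against 85.7 to 91.3 CPM), 4 of 4 blood genes (5.09 to 11.8 against 27.7 to 64.5 CPM) and 4 of 6 choroid plexus and ependyma genes (48.0 to 64.1 against 647 to 739 CPM). None of these lists reached 0 in the IPs.

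Some lists held members in both directions. The oligodendrocyte gene that was higher was Cldn11 (0.59 ± 0.15), a claudin of myelin. Of 10 astrocyte genes 8 were lower and 2 higher, the connexins Gja1 and Gjb6, and the summed level was 408 to 612 CPM in the IPs against 2370 to 2548 CPM in the inputs. Of 12 mural cell genes 6 were lower (Pdgfrb, Vtn, Abcc9, Notch3, Rgs5 and Cnn1), 3 did not pass and 3 were higher, Anpep, Acta2 and Myl9. Their median log2 fold change was -1.28. The mural sum was 54.2 to 115 CPM in the IPs and 53.9 to 58.2 CPM in the inputs, with Anpep at 30.4 against 2.25 CPM. Of 8 fibroblast genes 4 were lower (Pdgfra, Slc6a13, Igf2 and Lum) and 4 higher (Col1a1, Col1a2, Dcn and Ptgds), with a median of -0.17. Their sum was 1876, 2213 and 3240 CPM in the IPs against 833, 1072 and 934 CPM in the inputs. Most of this sum was Ptgds, at a mean of 2334 against 766 CPM, so it does not describe the list. Of the 8 lists of other cells 7 had their highest sum among the IPs in IP 3, the blood genes being the exception. The part that these cells have in the differences below was not tested. In the IPs, RNA on tagged ribosomes and untagged RNA carried through the pull-down cannot be told apart.

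Of the 17357 genes tested, 36.7% were higher in the IPs and 37.4% lower, and the libraries of the groups did not overlap for 80.8%. At a difference of at least 4-fold, 12.6% were higher and 18.9% lower. The median log2 fold change was -0.09. Over all tested genes the 1st percentile was -6.27 and the 99th 7.05. Among genes with a mean of at least 10 CPM in either group, the 99th percentile was 7.29 and the 1st percentile -3.14. Above that level, ratios thus reached further on the higher side than on the lower side. A second, smaller crest lay on the lower side, where the fullest bin from -2.25 to -2.0 held 647 genes and its neighbours fewer. The median of the 12 neuron markers was -2.53 and that of the 10 microglia markers -2.38.

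**Figure D1:**
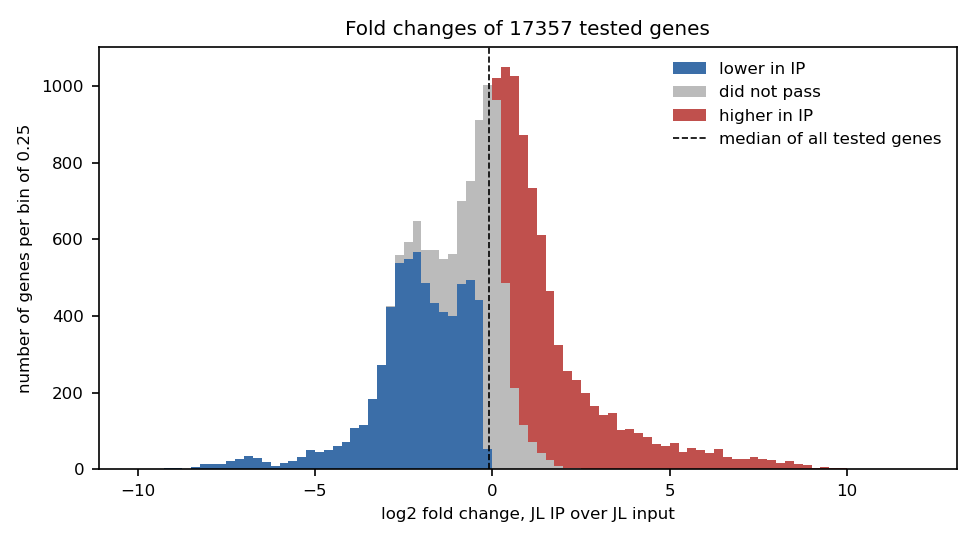
Number of genes (y axis) by log2 fold change of JL IP over JL input (x axis, bins of 0.25), coloured by call, with the median of all tested genes as a dashed line. The right flank runs out slowly to values above 7, and the left flank has its own crest between -2.25 and -2.0.

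Protein-coding genes were higher more often than other classes. Of 14829 protein-coding genes 40.6% were higher and 35.3% lower. Of 265 lincRNAs 16.6% were higher and 48.3% lower, and of 245 antisense RNAs 12.7% and 45.3%. The strand setting of the counting is not given in these sources, and antisense values may hold reads of the opposite gene. Gene length went with the call as well. Among the fifth of protein-coding genes with the shortest gene span (0.3 to 8.504 kb) 48.6% were higher and 26.6% lower. Among the fifth with the longest span (79.5 to 2961 kb) 30.3% were higher and 52.3% lower. The median span was 20.9 kb for genes at least 4-fold higher, 39.0 kb for those at least 4-fold lower and 25.3 kb for all.

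The 12 largest rises outside the marker lists, among protein-coding genes with at least 10 CPM, held 5 developmental transcription regulators. Tbx1, a T-box factor of pharyngeal and vascular development (chromosome 16, 18580979 to 18590671), stood at 25.4, 19.2 and 26.0 CPM in the IPs but at 0.0195, 0.0398 and 0.0217 CPM in the inputs. The 3 inputs together held 4 counts of it, and its log2 fold change of 9.60 ± 0.31 (adjusted p = 2.12e-08) rests on these. Ripply3, a repressor known to bind Tbx1 (chromosome 16, 94328420 to 94336935), stood at 27.6, 24.6 and 19.2 CPM in the IPs against 0, 0.119 and 0.0217 CPM, with 7 input counts in all (8.88 ± 0.49). Groups that do not overlap were a condition for choosing these 12 genes, so their separation is not a result.

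Sox18, a factor of blood and lymphatic vessel formation (chromosome 2, 181669836 to 181671640), stood at 706, 633 and 692 CPM in the IPs but at 1.78, 1.55 and 1.32 CPM in the inputs (8.76 ± 0.13). Foxf1, a forkhead factor needed for vessels of the embryo and lung (chromosome 8, 121084386 to 121088144), stood at 76.9, 70.4 and 83.8 against 0.137, 0.219 and 0.109 CPM (8.92 ± 0.20). Foxq1, another forkhead factor (chromosome 13, 31556134 to 31560976), stood at 246, 241 and 211 against 0.371, 0.557 and 0.543 CPM (8.89 ± 0.15). The libraries within each group lay close together for these 3 genes. Much of the exon sequence of Foxq1 is shared with the overlapping gene A530084C06Rik, so its value is uncertain.

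The other 7 large rises were surface, secreted and little-studied genes. Ly6c1, a surface protein anchored by a lipid tail (chromosome 15, 75044018 to 75048830), stood at 1223, 931 and 999 CPM in the IPs but at 2.07, 1.47 and 1.19 CPM in the inputs (9.37 ± 0.22); Ly6c2 is a close copy, and reads that fit both are in neither. Ctla2a, related to the propeptide of cysteine proteases (chromosome 13, 60934155 to 60936625), stood at 364, 348 and 325 against 0.391, 0.617 and 0.629 CPM (9.31 ± 0.15). Cytl1, a small secreted protein (chromosome 5, 37735519 to 37739820), stood at 205, 224 and 197 against 0.312, 0.298 and 0.391 CPM (9.28 ± 0.13). The separation of the groups was a condition of the choice for these 3 as well.

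Pglyrp1, a secreted protein that binds bacterial peptidoglycan (chromosome 7, 18871331 to 18890459), stood at 693, 438 and 646 CPM in the IPs but at 0.801, 1.05 and 1.30 CPM in the inputs (9.14 ± 0.26). Slc52a3, a riboflavin transporter (chromosome 2, 151996511 to 152009258), stood at 161, 134 and 133 against 0.176, 0.259 and 0.391 CPM (9.02 ± 0.20). IP 2 was the lowest IP for Pglyrp1 and Gm694. Gm694, a gene model (chromosome 4, 141432672 to 141436105), stood at 89.99, 63.2 and 106 against 0.0781, 0.199 and 0.1302 CPM (9.28 ± 0.32). Mall, a membrane protein of the MAL family (chromosome 2, 127704386 to 127729932), stood at 68.9, 65.1 and 74.4 against 0.0976, 0.239 and 0.109 CPM (8.84 ± 0.22). The spread between libraries was small against the difference for all 7.

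At the other end, the 12 largest falls, chosen under the same limits, were smaller in size, between -4.17 and -3.46 on the log2 scale. Ccbe1, a secreted factor of lymphatic vessel growth (chromosome 18, 66045302 to 66302741), stood at 1.202, 0.578 and 1.10 CPM in the IPs but at 16.3, 17.9 and 17.5 CPM in the inputs (-4.17 ± 0.27, adjusted p = 1.36e-06). Tac2, the precursor of the peptide neurokinin B (chromosome 10, 127724478 to 127731768), stood at 0.996, 0.174 and 1.07 against 11.4, 10.03 and 11.1 CPM (-3.88 ± 0.50). Pvalb, the calcium buffer parvalbumin of fast-spiking interneurons (chromosome 15, 78191114 to 78206400), stood at 3.02, 3.79 and 2.98 against 39.5, 35.4 and 34.7 CPM (-3.48 ± 0.15). The rule that chose the 24 largest changes asked for groups that do not overlap, so their separation is not a result.

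The granins Scg2 and Chgb, proteins of dense-core vesicles, fell as well. Scg2 (chromosome 1, 79434669 to 79440120) stood at 8.04, 8.16 and 20.0 CPM in the IPs but at 146, 156 and 154 CPM in the inputs (-3.66 ± 0.33). Chgb (chromosome 2, 132781278 to 132795079) stood at 33.6, 30.3 and 52.5 against 429, 428 and 445 CPM (-3.48 ± 0.20). For both, IP 3 was the highest IP, the library that also had the highest neuron sum. Necab1, a neuronal calcium-binding protein (chromosome 4, 14952245 to 15149794), stood at 16.4, 22.8 and 24.4 against 253, 248 and 261 CPM (-3.58 ± 0.14).

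The cell adhesion genes Cdh12 and Cntnap5b were also among the 12. Cdh12, a cadherin (chromosome 15, 20449265 to 21589533), stood at 3.92, 3.88 and 6.73 CPM in the IPs but at 60.6, 55.0 and 55.8 CPM in the inputs (-3.56 ± 0.21). Cntnap5b, a contactin-associated protein (chromosome 1, 99772765 to 100485942), stood at 2.71, 1.82 and 1.91 against 30.2, 27.9 and 30.4 CPM (-3.78 ± 0.18). Both genes span far more than the median gene. Lgr5, a receptor for R-spondins (chromosome 10, 115450311 to 115587780), stood at 0.206, 1.04 and 1.14 against 7.15, 12.8 and 13.7 CPM (-3.80 ± 0.52). IP 1 and input 1 were the lowest of their groups for Lgr5.

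Prlr, the prolactin receptor (chromosome 15, 10177238 to 10349180), stood at 0.893, 1.36 and 1.31 CPM in the IPs but at 13.4, 15.7 and 14.5 CPM in the inputs (-3.60 ± 0.22). Smim18, a small membrane protein (chromosome 8, 33742112 to 33747770), stood at 0.618, 1.01 and 1.51 against 13.5, 13.96 and 12.5 CPM (-3.66 ± 0.30). Cfap69, a protein of motile cilia and flagella (chromosome 5, 5579278 to 5664239), stood at 1.61, 0.492 and 2.68 against 17.2, 18.3 and 16.6 CPM (-3.46 ± 0.46). The IPs of Cfap69 spread over more than 5-fold.

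**Figure D2:**
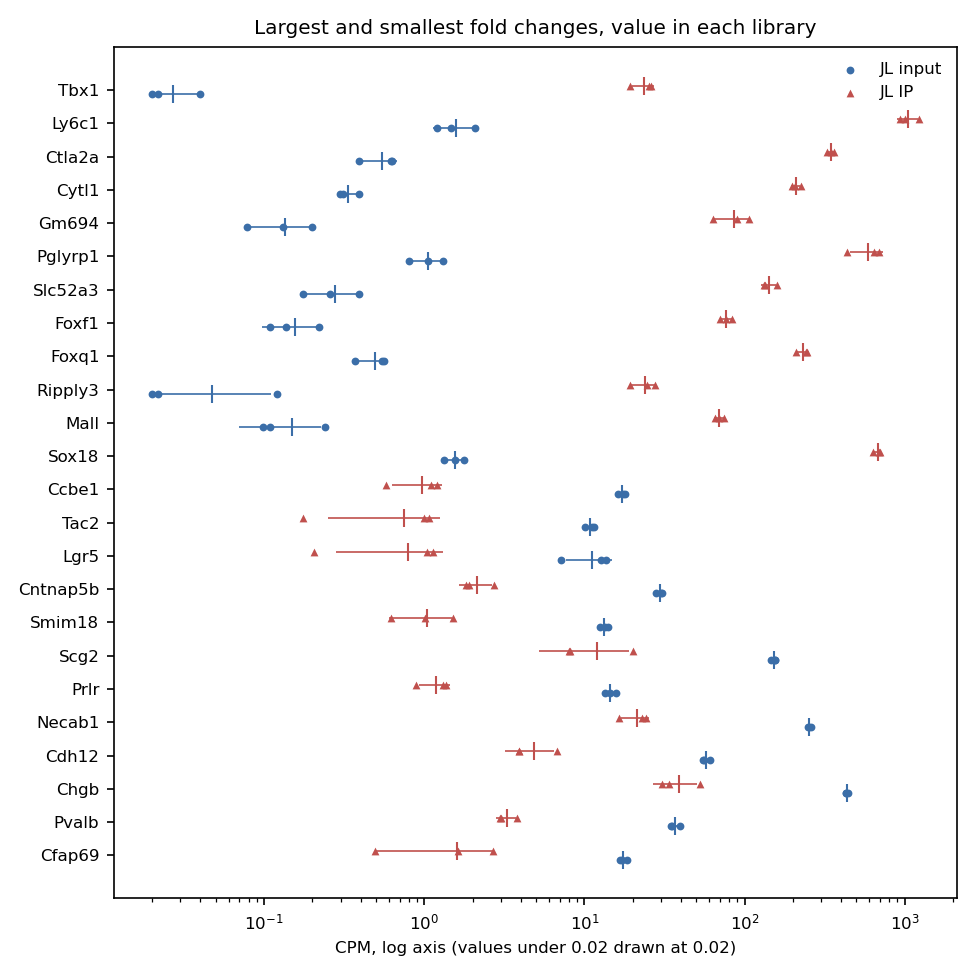
CPM in each library of the 12 largest and 12 smallest log2 fold changes among called protein-coding genes of at least 10 CPM, on no marker list and with no overlap (x axis, log scale), IPs as red triangles and inputs as blue circles, with group mean and SD. The fitted difference is 434-fold to 778-fold for the upper 12 genes and 11-fold to 18.1-fold for the lower 12.

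Beyond these extremes, 31 lists of genes by function, with 1372 genes that have a row in the files, describe what else the IPs held. The lists were chosen with earlier results of these data known, so how many of them leaned to a side is not a result. In 26 of the 31 lists the share of members that were higher was above the 36.7% of all tested genes. In 12 the share that were lower was above 37.4%. These lists, and the subfamilies counted within them below, are made of protein-coding genes, for which the background is 40.6% and 35.3%. Apart from the gamma subunits, the subfamilies were picked after their values were seen. Against that background the channel list (39.5% higher) drops out of the 26. Splicing factors (35.8% lower) and fatty acid genes (36.7% lower) join the 12. Scaling by upper quartile or by library size alone lowered the log2 fold changes by a median of 0.25 and 0.26, and the list medians below should be read relative to such a shift. Under it the medians of G protein subunits, purine genes, splicing factors and intermediate filaments turned negative.

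**Figure D3:**
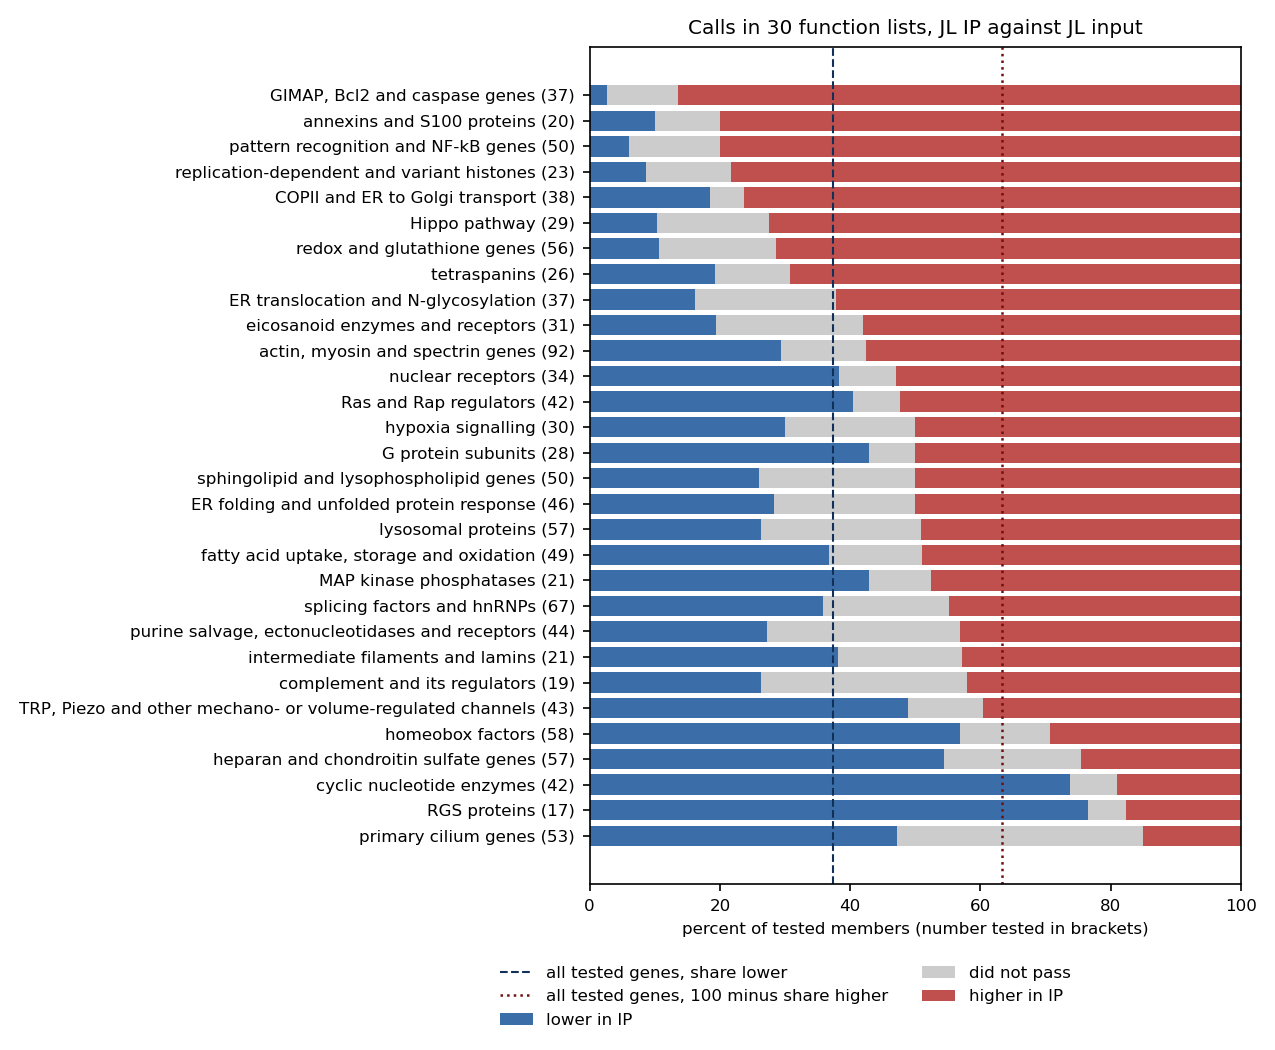
Share of the tested members of 30 of the 31 function lists (y axis, number tested in brackets) that were lower, did not pass or were higher in the IPs (x axis, percent), with the shares of all tested genes as vertical lines. GIMAP, Bcl2 and caspase genes had the highest share higher (86.5%) and RGS proteins the highest share lower (76.5%).

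Heterotrimeric G proteins pass the signal of most vessel-acting hormone receptors, and their subunits moved in both directions. Of 28 tested subunits 14 were higher and 12 lower. Their median was 0.08 on the log2 scale, against -0.09 for all tested genes. The inhibitory alpha subunit Gnai2 stood at 1760 CPM against 118 CPM (3.90 ± 0.10), while Gnal, the alpha subunit of olfactory and striatal neurons, stood at 76.2 ± 8.73 against 488 ± 4.85 CPM (-2.68 ± 0.09). The gamma subunits, short lipid-anchored partners of the beta subunits of the complex, did so too. Of the 11 that were tested, 4 were higher, 6 were lower and 1 did not pass.

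Gngt2, first known from cone photoreceptors (chromosome 11, 95837216 to 95845734), stood at 62.7, 47.6 and 29.9 CPM in the IPs but at 1.07, 0.855 and 1.04 CPM in the inputs (5.56 ± 0.31, adjusted p = 5.04e-07). Gng11 (chromosome 6, 4003904 to 4008445) stood at 334, 265 and 258 against 8.63, 7.54 and 5.60 CPM (5.30 ± 0.18). Gng5 (chromosome 3, 146499807 to 146505572) stood at 150, 127 and 154 against 4.96, 5.71 and 6.21 CPM (4.67 ± 0.13). Gngt2 and Gng11 were highest in IP 1 and Gng5 in IP 3, and every IP was far above every input.

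Gng12 (chromosome 6, 66896397 to 67021350) rose less, from 95.5, 86.8 and 94.6 CPM in the inputs to 265, 302 and 252 CPM in the IPs (1.56 ± 0.09). Gng2 (chromosome 14, 19872559 to 19977627) stood at 80.7, 81.7 and 103 CPM in the IPs but at 510, 491 and 499 CPM in the inputs (-2.50 ± 0.11). Gng3, a neuronal subunit (chromosome 19, 8836933 to 8839194), stood at 183, 148 and 217 against 493, 515 and 547 CPM (-1.51 ± 0.13). Gng4 (chromosome 13, 13784059 to 13827896) stood at 56.5, 65.6 and 73.1 against 123, 165 and 158 CPM (-1.19 ± 0.13). Gng2, Gng3 and Gng4 were thus lower in every IP than in every input.

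Gng7 (chromosome 10, 80948624 to 81014945) stood at 81.3, 87.3 and 102 CPM in the IPs but at 172, 163 and 186 CPM in the inputs (-0.95 ± 0.10). Gng10 (chromosome 4, 59035088 to 59041903) stood at 31.7, 34.0 and 30.4 against 45.6, 44.2 and 45.2 CPM (-0.49 ± 0.09, adjusted p = 0.000982); it shares most of its exon sequence with Gm20503, and with all 9 libraries in the fit its adjusted p was 0.0713. Gng8 (chromosome 7, 16891786 to 16895436) stood at 1.202, 0.752 and 0.970 against 2.28, 1.97 and 1.97 CPM (-1.09 ± 0.38, adjusted p = 0.0274). The call of Gng8 was lost without input 1 (adjusted p = 0.12), input 2 (0.0866) or input 3 (0.0841) and without IP 1 and input 1 together (0.0566). Gng13 (chromosome 17, 25717171 to 25719406), which shares exon sequence with Chtf18, stood at 2.71, 1.71 and 1.31 against 2.89, 3.36 and 3.04 CPM and did not pass (-0.70 ± 0.35, adjusted p = 0.102). It passed without IP 1 (-1.02, adjusted p = 0.0123), with limma-voom (adjusted p = 0.048) and with either of the scalings that lower all values (0.0364 and 0.0309).

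**Figure D4:**
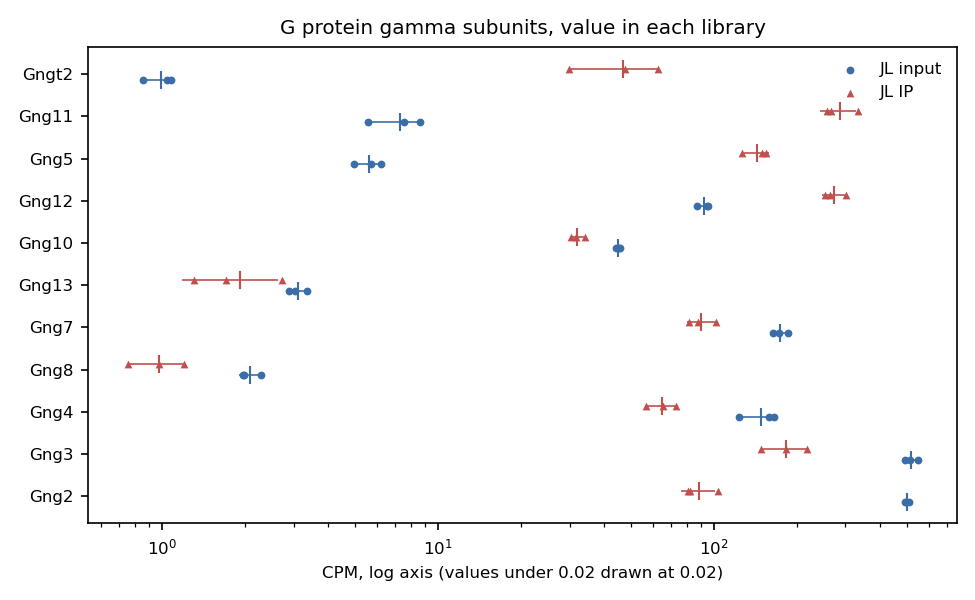
CPM of the 11 tested G protein gamma subunits in each library (x axis, log scale), IPs as red triangles and inputs as blue circles, with group mean and SD. Gngt2, Gng11, Gng5 and Gng12 lie to the right in the IPs, and the other 7 lie to the left.

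RGS proteins, which speed the return of G protein alpha subunits to the inactive state, were mostly lower. Of 17 tested 3 were higher, Rgs3 (3.76 ± 0.12), Rgs12 (2.82 ± 0.10) and Rgs19, and 13 were lower (76.5%, median -2.26). Rgs3 stood at 90.2 ± 4.64 against 6.65 ± 0.941 CPM. Rgs11 fell most among those with at least 5 CPM (-3.43 ± 0.59), and Rgs5, which is also a pericyte marker, stood at 2.07 against 14.8 CPM (-2.82 ± 0.42). Enzymes that make, break or sense cyclic nucleotides showed a like split. Of 42 tested 8 were higher and 31 lower (73.8%, median -1.34).

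Among 10 adenylyl cyclases, which make cAMP, Adcy4 and Adcy6 were higher and the other 8 lower. Adcy4 stood at 49.3 ± 0.0898 against 0.238 ± 0.0858 CPM (7.68 ± 0.21). Npr1, the natriuretic peptide receptor that makes cGMP, rose (16.8 ± 1.81 against 0.987 ± 0.294 CPM, 4.09 ± 0.25). Of 18 phosphodiesterases, which break cyclic nucleotides, 4 were higher and 13 lower (median -1.09). Pde5a (2.22 ± 0.17) and Pde2a (1.57 ± 0.07) were among the higher and Pde11a among the lower. The subunits of the nitric oxide receptor Gucy1a2 (-2.997 ± 0.10) and Gucy1b3 (-2.68 ± 0.15) fell. Prkar1b, a neuronal regulatory subunit of protein kinase A, stood at 46.7 ± 13.7 against 423 ± 0.473 CPM (-3.18 ± 0.19).

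Regulators of the small GTPases Ras and Rap, which act in growth signalling and at cell junctions, went both ways. Of 42 Ras and Rap regulators 22 were higher and 17 lower (median 0.39). Ccm2l, a partner of the cerebral cavernous malformation proteins, stood at 70.4 ± 6.44 against 0.690 ± 0.492 CPM (6.66 ± 0.36).

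Within the RasGRP exchange factors the paralogs went opposite ways. Rasgrp3 stood at 1203 ± 107 CPM in the IPs against 26.9 ± 1.75 CPM (5.48 ± 0.10), and Rasgrp1 at 137 ± 17.1 against 967 ± 32.4 CPM (-2.82 ± 0.10). Dual-specificity phosphatases, which switch off MAP kinases, were 10 higher and 9 lower of 21 (median 0.40). Dusp23 (4.05 ± 0.13) and Dusp1 (423 ± 68.3 against 59.2 ± 2.05 CPM, 2.84 ± 0.12) rose and Dusp4 fell (-2.50 ± 0.26).

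The Hippo pathway, which ties cell density and mechanical load to the coactivators Yap1 and Wwtr1, was among the lists with the highest share of higher members. Of 29 tested 21 were higher and 3 lower (72.4% higher, median 2.31). The coactivators rose, Wwtr1 from 11.9 ± 0.412 to 506 ± 44.2 CPM (5.41 ± 0.10) and Yap1 from 13.4 to 104 CPM (2.95 ± 0.10). Of their 4 DNA-binding partners, Tead1, Tead2 and Tead4 were higher and Tead3 did not pass. Tead4 stood at 34.6 ± 1.27 against 0.148 ± 0.0804 CPM (7.83 ± 0.26). The lower members were Wwc1 (-1.71 ± 0.13), Taok3 (-1.38 ± 0.12) and Taok1 (-0.45 ± 0.07), and with the scalings that lower all values 7 were lower.

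Lipid mediators and their receptors came next. Of 50 sphingolipid and lysophospholipid genes 25 were higher and 13 lower (median 0.52). S1pr4, a receptor for sphingosine 1-phosphate best known from lymphocytes, stood at 11.9 ± 1.72 against 0.0873 ± 0.0269 CPM (7.03 ± 0.32), with 13 input counts in all. S1pr1, the main endothelial receptor of that lipid, stood at 1125 against 41.0 CPM (4.78 ± 0.11). Of the enzymes, Degs2, a sphingolipid hydroxylase (111 ± 16.3 against 1.87 ± 0.390 CPM, 5.90 ± 0.18), Acer2, an alkaline ceramidase (5.02 ± 0.18), and Sgms1, a sphingomyelin synthase (5.01 ± 0.11), rose. Ugt8a, which makes the myelin lipid galactosylceramide, fell (-2.93 ± 0.23).

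Of 31 eicosanoid genes 18 were higher and 6 lower (median 0.69). Ptgis, the prostacyclin synthase, stood at 41.1 ± 6.48 against 1.07 ± 0.389 CPM (5.27 ± 0.26). Alox12, a lipoxygenase better known from platelets, stood at 23.9 ± 7.10 against 0.649 ± 0.233 CPM (5.19 ± 0.33). Alox5 and its activating protein Alox5ap, which start leukotriene synthesis in leukocytes, were among the 6 lower, as was the prostaglandin receptor Ptger3 (-2.98 ± 0.39). Alox5 and Alox5ap were low in both groups, at 0.0458 and 0.252 CPM in the IPs against 0.414 and 1.73 CPM. The number lower was 3 without input 1, 2 or 3, and 10 with the scalings that lower all values.

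Genes of fatty acid handling were 24 higher and 18 lower of 49 (median 0.72). The triglyceride lipase Pnpla2 stood at 217 ± 16.9 against 11.7 ± 0.830 CPM (4.21 ± 0.10). The droplet coat protein Plin2 (3.94 ± 0.13), the carnitine transferase Cpt1a (3.85 ± 0.10) and the fatty acid sensing receptor Ppard (3.75 ± 0.12) rose, while the lipase Lpl and the carnitine transferase Cpt1c fell. Fabp5, a fatty acid-binding protein, fell from 22.2 ± 1.95 to 2.90 ± 0.685 CPM (-2.94 ± 0.20).

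Purine genes were 19 higher and 12 lower of 44 (43.2% and 27.3%, median 0.08), against 40.6% and 35.3% of all protein-coding genes. Among surface enzymes that break down nucleotides, Entpd1 (4.65 ± 0.09) and Nt5e (1.79 ± 0.22) rose, while Entpd2 (-2.24 ± 0.77) and Entpd3 (-1.71 ± 0.48) fell and Enpp1 and Enpp3 did not pass. The adenosine deaminase Ada rose (2.62 ± 0.44). Xdh, xanthine dehydrogenase, stood at 66.2 ± 6.51 against 0.520 ± 0.378 CPM (6.97 ± 0.36), and P2ry2, a receptor for ATP and UTP, at 6.996 ± 1.08 against 0.211 ± 0.0241 CPM (5.03 ± 0.32). P2ry13, a microglial receptor for ADP, fell (-3.52 ± 0.49).

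Redox and glutathione genes were 40 higher and 6 lower of 56 (71.4% higher, median 1.48). Txnip, an inhibitor of thioredoxin that responds to glucose, stood at 393 ± 57.3 against 9.67 ± 2.33 CPM (5.34 ± 0.20). Nfe2l2, the master regulator of the antioxidant response, stood at 319 against 19.8 CPM (4.01 ± 0.08), and the selenium carrier Sepp1 at 2592 against 118 CPM (4.45 ± 0.09). The subunits of the NADPH oxidase parted, Cyba rising (22.2 ± 3.04 against 0.612 ± 0.0789 CPM, 5.18 ± 0.21) and Cybb, the phagocyte catalytic subunit, falling (-3.79 ± 0.81). Cybb stood at 0.0416 against 0.626 CPM, below the level of 3 counts in the IPs. Nox4, another oxidase gene of the list, was higher (1.48 against 0.475 CPM, 1.63 ± 0.45). Sod2 (-0.97 ± 0.08) and Gpx3 (-2.12 ± 0.15) fell too. With the scalings that lower all values 10 of the list were lower.

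In the hypoxia list 15 of 30 were higher and 9 lower (median 0.39). Epas1, the endothelial hypoxia-inducible factor, stood at 3566 ± 244 against 93.6 ± 6.59 CPM (5.25 ± 0.10), and its relative Hif1a at 96.4 against 65.6 CPM (0.56 ± 0.14). Ddit4, an inhibitor of mTORC1, rose (271 ± 54.0 against 21.8 ± 0.850 CPM, 3.64 ± 0.15), and the lipoprotein and reelin receptor Vldlr fell (-2.64 ± 0.14).

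The early secretory pathway leaned to the higher side with modest folds. Of 38 genes of COPII coats and transport from the endoplasmic reticulum (ER) to the Golgi 29 were higher and 7 lower (76.3% higher, median 0.65), among them the KDEL receptor Kdelr2 (134 ± 2.44 against 32.0 ± 0.936 CPM, 2.07 ± 0.07) and the SNARE Gosr2 (1.75 ± 0.08), while Tango2 fell (-1.62 ± 0.24). Of 37 ER translocation and glycosylation genes 23 were higher and 6 lower (median 0.80), or 10 lower with the scalings that lower all values. The translocon paralogs split: Sec61b rose (2.56 ± 0.11) and Sec61a2 fell (65.8 ± 2.46 to 10.1 ± 1.86 CPM, -2.70 ± 0.14). Tram2, which works with collagen synthesis, rose most (20.3 ± 2.48 against 1.08 ± 0.280 CPM, 4.23 ± 0.24), and Ost4 (2.89 ± 0.10) shares exon sequence with Agbl5.

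Of 46 genes of ER folding and the unfolded protein response 23 were higher and 13 lower (median 0.28). The transcription factor Xbp1 rose (242 against 66.7 CPM, 1.86 ± 0.08), as did the stress pseudokinase Trib3 (5.43 ± 0.47) and the collagen chaperone Fkbp10 (3.26 ± 0.28). The chaperone Hspa5 (-1.26 ± 0.09) and Sel1l, an adaptor of ER-associated degradation (-1.42 ± 0.08), fell. Sulfated sugar chains of the glycocalyx are made by a list that went lower in the main, with 14 higher and 31 lower of 57 (54.4% lower, median -0.60). The dermatan sulfotransferase Chst14 (3.52 ± 0.35) and the heparan sulfate polymerase Ext2 (63.2 ± 29.8 against 19.1 ± 1.32 CPM, 1.73 ± 0.28) rose, and the core protein Gpc5 fell (-3.16 ± 0.24).

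Lysosomal genes were 28 higher and 15 lower of 57 (median 0.38). Cathepsins divided, Ctsh at 140 ± 8.30 against 2.30 ± 0.676 CPM (5.93 ± 0.19) and Ctsc (4.18 ± 0.17) on the higher side, and the microglial Ctss (-2.32 ± 0.24) and the broadly expressed Ctsb (-1.19 ± 0.14) on the lower. Hyal2, a hyaluronidase of the cell surface, rose (3.25 ± 0.16).

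Nuclear factors followed. Of 67 splicing factors 30 were higher and 24 lower (44.8% and 35.8%, median 0.12), near the 40.6% and 35.3% of all protein-coding genes. Ptbp1 stood at 315 ± 43.3 against 19.5 ± 1.996 CPM (4.02 ± 0.13) and Ptbp3 at 487 ± 57.1 against 59.0 ± 2.56 CPM (3.04 ± 0.10). Ptbp2, the neuronal member, fell (-2.26 on the log2 scale). All 12 genes that passed among 14 of the Celf, Elavl, Nova and Rbfox families, which are known for neuronal splicing and RNA stability, were lower, with Elavl4 at 14.8 ± 5.36 against 132 ± 1.93 CPM (-3.16 ± 0.22).

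Homeobox factors were 17 higher and 33 lower of 58 (56.9% lower, median -1.04). The higher ones included Hhex, an early endothelial factor (123 ± 19.3 against 1.21 ± 0.209 CPM, 6.66 ± 0.18), Hlx (18.5 ± 6.45 against 0.175 ± 0.124 CPM, 6.69 ± 0.47) and Meox1 (6.26 ± 0.36). Of 34 nuclear receptors 18 were higher and 13 lower (median 0.37). The retinoic acid receptor Rarg (55.4 ± 9.16 against 2.63 ± 0.292 CPM, 4.39 ± 0.17) and the oxysterol receptors Nr1h3 (2.86 ± 0.24) and Nr1h2 (2.69 ± 0.13) rose. Rorb, a factor of cortical layer 4, stood at 24.0 ± 2.20 against 221 ± 5.69 CPM (-3.20 ± 0.09).

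Histone genes were 18 higher and 2 lower of 23 (78.3% higher, median 1.49), led by the linker histone Hist1h1c (91.7 ± 6.5003 against 4.95 ± 0.449 CPM, 4.21 ± 0.11). The lower 2 were Hist1h2ad and Hist3h2ba (-2.08 ± 0.43), and the number lower was 1 without input 2 or input 3. Histone genes have near-identical copies, and replication-dependent histone mRNA lacks a poly(A) tail, so these values are uncertain.

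Of 92 actin, myosin and spectrin genes 53 were higher and 27 lower (57.6% higher, median 0.73). Crip1, a small LIM protein (167 ± 20.1 against 1.95 ± 0.272 CPM, 6.42 ± 0.15), and Capg, a filament capping protein (42.3 ± 0.788 against 0.653 ± 0.190 CPM, 6.01 ± 0.20), led. Non-muscle members rose with them, such as tropomyosin Tpm4 (5.49 ± 0.09), the membrane linker Msn (5.20 ± 0.11) and the myosin heavy chain Myh9 (4.06 ± 0.09). Epb4.1l3, a linker of the spectrin skeleton, fell (-3.05 ± 0.08).

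Intermediate filaments and lamins were 9 higher and 8 lower of 21 (42.9% and 38.1%, median 0.19), near the 40.6% and 35.3% of all protein-coding genes. Vimentin Vim, at 926 ± 78.8 against 11.8 ± 0.947 CPM (6.29 ± 0.11), and nestin Nes (5.51 ± 0.22) were higher, and the neuronal Ina was lower (-2.19 ± 0.11). Of 43 mechanically gated, volume-regulated and related calcium channels 17 were higher and 21 lower (48.8% lower, median -0.04). Piezo1, a sensor of shear stress, stood at 60.6 ± 0.914 against 1.71 ± 0.0978 CPM (5.14 ± 0.11) and shares exon sequence with Ctu2. The inositol trisphosphate receptor Itpr3 rose (5.49 ± 0.15). The store-operated channel paralogs parted, Orai1 higher (3.84 ± 0.14) and Orai2 lower (-2.77 ± 0.19).

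Primary cilium genes had the lowest share of higher members, 8 of 53 (15.1%), with 25 lower (47.2%, median -0.38). The higher ones rose little, such as Ift172 (44.8 ± 5.53 against 17.6 ± 0.731 CPM, 1.34 ± 0.12), Ift43 (1.32 ± 0.16) and the ciliary GTPase Arl13b (1.197 ± 0.13). The ciliary kinesin Kif17 fell (-2.61 ± 0.50).

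Immune lists differed from each other. Complement genes were 8 higher and 5 lower of 19 (42.1% and 26.3%, median -0.11), against 40.6% and 35.3% of all protein-coding genes. The number lower was 2 without input 1, 2 or 3. Cd93, an endothelial lectin-like receptor first described as binding C1q, stood at 481 ± 36.5 against 2.09 ± 0.430 CPM (7.84 ± 0.16). Masp1, a protease of the lectin pathway, fell (-1.94 ± 0.33).

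Pattern recognition and NF-kB genes were 40 higher and 3 lower of 50 (80.0% higher, median 2.44). Of 9 cytosolic sensors of the RIG-I and NLR families 6 were higher and 3 did not pass (Nlrp3, Nlrx1 and Nlrp6). Nod1 rose from 3.31 to 144 CPM (5.45 ± 0.09), Ddx58 from 4.11 to 112 CPM (4.77 ± 0.19) and Ifih1 from 5.80 to 94.8 CPM (4.03 ± 0.18). Nlrc5, the activator of MHC class I genes, stood at 8.28 ± 5.14 against 0.108 ± 0.0630 CPM (6.22 ± 0.64). Nfkbia, the inhibitor that NF-kB induces, rose 5.43 ± 0.14. The 3 lower members were Toll-like receptors: Tlr1, Tlr7 and Tlr9, each at no more than 1.89 CPM in the inputs, while Tlr2, Tlr3, Tlr4 and Tlr6 were higher and Tlr5 did not pass.

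GIMAP GTPases, Bcl2 family members and caspases had the highest share of all lists, 32 higher and 1 lower of 37 (86.5% higher, median 3.14). All 7 tested Gimap genes were higher, from 3.14 to 8.29, with Gimap6 at 409 ± 24.9 against 1.40 ± 0.396 CPM (8.18 ± 0.18). Both promoters and inhibitors of cell death rose: the initiator caspase Casp8 (5.37 ± 0.11) and the survival protein Mcl1 (2.65 ± 0.08). Bcl2l2 was the only lower member (-1.20 ± 0.07).

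At the surface, tetraspanins were 18 higher and 5 lower of 26 (69.2% higher, median 1.34), with Cd151 at 206 ± 17.3 against 8.85 ± 0.499 CPM (4.54 ± 0.10), Tspan8 at 22.0 ± 8.93 against 0.210 ± 0.176 CPM (6.66 ± 0.60) and the neuronal Tspan7 lower (-2.60 ± 0.14). Annexins and S100 proteins, which bind calcium and membranes, were 16 higher and 2 lower of 20 (80.0% higher, median 2.84). Of 10 annexins 9 were higher, with Anxa3 at 373 ± 35.4 against 5.01 ± 0.786 CPM (6.22 ± 0.14). S100a11 stood at 135 ± 11.02 against 1.55 ± 0.613 CPM (6.44 ± 0.23), and the glial S100b at 39.2 ± 2.995 against 70.5 ± 2.74 CPM (-0.85 ± 0.09).

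Some of the largest rises were neighbours on the chromosome. Along the GENCODE M21 order of tested protein-coding genes there were 9 runs of at least 5 genes that were each at least 4-fold higher, 57 genes together. They were found from these same values and are a description. The longest lay on chromosome 11 from 48861968 to 49187159 (mm10) and held 10 genes, among them the interferon-inducible GTPases Irgm1, Tgtp1, Tgtp2 and Ifi47. The next held the 7 Gimap genes with Tmem176a and Tmem176b on chromosome 6 (48647234 to 48847071, median log2 fold change 6.99). Others held Trim genes on chromosome 7, guanylate-binding protein (Gbp) genes on chromosomes 3 and 5, Ly6 genes on chromosome 15 and histones on chromosome 13. Members of these families have close copies, reads that fit several places were counted for none, and their values are uncertain.

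**Figure D5:**
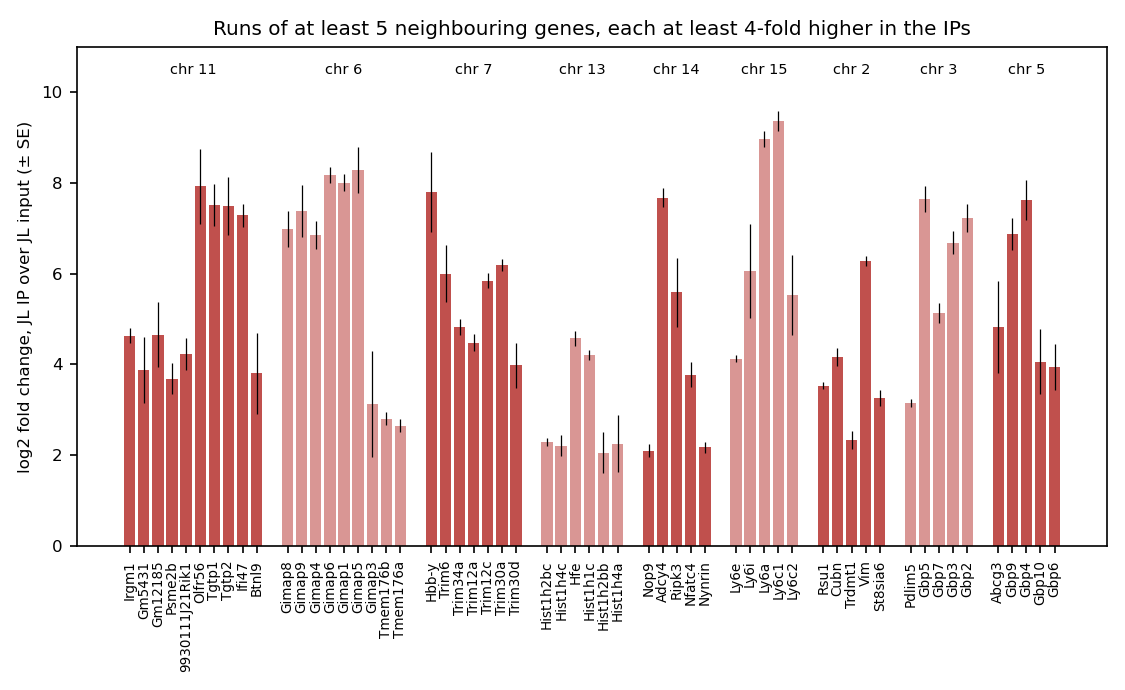
Log2 fold change of JL IP over JL input (y axis, bars, with SE) of the 57 genes in the 9 runs of neighbouring genes, in chromosome order within each run (x axis). All bars lie above 2, and those of the Gimap run have a median of 6.99.

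Start regions were read from RefSeq (GRCm38.p6) as windows of 250 bases before to 50 bases after the gene start, which 11625 of the 14829 tested protein-coding genes had. The interferon-stimulated response element, searched as GAAA, any 2 bases and GAAA again on both strands, occurred in 3.002% of all these windows. It occurred in 5.85% of the windows of genes at least 4-fold higher, in 8.84% of those at least 16-fold higher and in 3.02% of those at least 4-fold lower. Of the genes tested 4.90% were higher by at least 16-fold. Of 45 windows of genes in the runs 15 (33.3%) held it: 6 of 7 in the run on chromosome 7, 5 of 10 on chromosome 11, 4 of 5 on chromosome 3 and 0 of 9 in the Gimap run. Some of the 15 are near copies of each other, such as Tgtp2 and Gm12185, Trim12a and Trim12c, or Trim30a and Trim30d. They are therefore not separate occurrences. Those on chromosome 7 include the globin gene Hbb-y, whose match lay at the edge of the window, 250 bases before the start. Windows of 3 genes with the element and of Gimap6, which has none, are shown 5′ to 3′ along each gene, with the matching letters in capitals.
Gbp2, chr3:142620413-142620712, plus strand: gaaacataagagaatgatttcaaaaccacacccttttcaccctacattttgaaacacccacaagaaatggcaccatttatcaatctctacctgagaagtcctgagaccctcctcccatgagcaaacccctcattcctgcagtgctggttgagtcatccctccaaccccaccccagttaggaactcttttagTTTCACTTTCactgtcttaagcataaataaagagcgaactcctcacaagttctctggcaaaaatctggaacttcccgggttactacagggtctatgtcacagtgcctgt
Irgm1, chr11:48871371-48871670, minus strand: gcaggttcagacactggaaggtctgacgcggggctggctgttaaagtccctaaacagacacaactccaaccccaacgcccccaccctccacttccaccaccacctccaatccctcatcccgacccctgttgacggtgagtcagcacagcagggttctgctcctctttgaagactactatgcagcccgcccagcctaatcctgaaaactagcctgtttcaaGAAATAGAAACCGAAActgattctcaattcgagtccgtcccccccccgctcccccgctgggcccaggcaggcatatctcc
Trim30a, chr7:104465144-104465443, minus strand: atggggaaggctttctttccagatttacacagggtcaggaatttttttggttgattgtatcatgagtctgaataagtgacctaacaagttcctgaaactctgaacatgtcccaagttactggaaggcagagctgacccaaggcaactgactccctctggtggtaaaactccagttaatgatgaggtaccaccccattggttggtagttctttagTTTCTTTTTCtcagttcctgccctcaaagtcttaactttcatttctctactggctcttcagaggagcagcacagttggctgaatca
Gimap6, chr6:48708195-48708494, minus strand: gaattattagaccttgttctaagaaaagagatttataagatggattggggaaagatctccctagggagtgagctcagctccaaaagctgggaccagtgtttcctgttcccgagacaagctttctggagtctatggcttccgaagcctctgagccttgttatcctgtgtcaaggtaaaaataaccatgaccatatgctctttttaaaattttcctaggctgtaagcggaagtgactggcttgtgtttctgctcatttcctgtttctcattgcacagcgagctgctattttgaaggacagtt
The match began 59 bases before the start in Gbp2, 36 before it in Trim30a and 30 before it in Irgm1, where 2 matches overlapped. The log2 fold changes of these genes were 7.23, 6.18 and 4.63, and that of Gimap6 was 8.18. A match is a run of letters and not a shown site of binding.

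The windows of the higher genes also differed in base composition. The ratio of observed to expected CpG had a median of 0.741 over all windows, 0.446 for genes at least 16-fold higher and 0.554 for genes at least 4-fold lower. It exceeded 0.6, a usual mark of CpG islands, in 67.8%, 33.6% and 45.0% of them, and in 67.9% of genes that did not pass. For genes at least 4-fold higher the median was 0.606, and 50.55% exceeded 0.6. At the same cut of 4-fold, the lower genes thus had the lower ratios. Low ratios were thus found at both ends of the fold changes. The ETS motif CAGGAAG, on either strand, was in 11.9% of all windows, 18.5% of those at least 16-fold higher and 10.5% of those at least 4-fold lower. ETS was among several motifs searched, and its rise did not set it apart. The motif called FOX was in 4.16% of windows at least 16-fold higher against 2.45% of all windows. For the motif called KLF the shares were 11.1% and 8.53%. Among the motifs searched, only those called CRE and NRF1 were rarer there, at 1.04% and 0.173% against 3.06% and 1.90%. All these shares are descriptions with no test.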

How the data were processed

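The authors deposited 1 file per library with raw read counts per gene. Reads were aligned with STAR 2.0.0e to mm10 and counted with HTSeq, per the submitters' processing notes. Annotation, strand setting and filters of the counting are not given in these sources. Each file holds 32531 gene rows. HTSeq's special rows and the row named unknown entered neither library sizes nor tests. Positions and gene classes from GENCODE M21 (mm10) were matched by symbol, or by RefSeq synonym, for 23884 rows.

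The 3 JL IP and 3 JL input libraries were fitted alone in R 4.3.3 with the quasi-likelihood test of edgeR 4.0.16 (glmQLFit, glmQLFTest) after filterByExpr and TMM scaling. P-values were adjusted by Benjamini-Hochberg across the tested genes, with 0.05 as the threshold. SEs were obtained from the log2 fold change and its F statistic. The code was tested on simulated counts. Replicates differed by 29.1 to 38.6 (IP) and 7.33 to 9.45 (input) chi-square units per degree of freedom, so no file repeated another. These values do not show separate mice or pull-downs. Each file was counted as 1 replicate.

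The members and gene lists were chosen with earlier results of these data known. Named genes followed a rule: the 5 markers; the 12 largest and 12 smallest log2 fold changes among called protein-coding genes with no overlap whose higher group averaged at least 10 CPM and on no marker list; per function list the 2 largest rises and 1 largest fall of at least 5 CPM; and all tested gamma subunits. The values of 1 function list and of some single genes are not reported here. Other genes singled out, subfamilies, runs and motifs were chosen after their values were seen. Alternatives were other scaling factors (RLE, upper quartile, library size, without Rn45s), no filter, DESeq2 1.42.0, limma-voom 3.58.1, all 9 libraries, a replicate block and leaving out each library.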

Additional observations from a re-analysis of the deposited data

Results flagged for a closer look

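Reads in no gene made up 23.5% (23.47) of reads assigned by the counter in the JL IPs, above every input library, whose mean was 19.3 ± 0.503% (SD, n = 3). Alignments counted as not unique came to 1.90 (1.903) per gene count in the JL IPs, also above every input library, whose mean was 0.626 ± 0.0135 (SD, n = 3). Both values come from counter rows that the comparison does not use. A further such row went the other way, since ambiguous reads took 2.09 ± 0.0462% of the IP libraries against 10.8 ± 0.519% of the input libraries.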

How the results depend on the processing

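The numbers of genes higher and lower stayed within 1.5 times of 6372 and 6487 under every alternative run, from 5392 to 6571 higher and 5629 to 7566 lower. The share of calls that were higher went from 49.6% to 41.8% with upper quartile factors and 41.6% with library size alone, which lowered the median log2 fold change by 0.25 and 0.26. Of the list counts 974 were within 1.5 times and 18 were not, and all 18 were numbers of lower members. With upper quartile factors or library size the numbers lower were 7 for Hippo (from 3), and 10 for eicosanoid, redox and ER translocation genes (from 6 each). Leaving out single libraries gave 3 to 6 lower for eicosanoid genes, 1 to 2 for histones and 2 to 5 for complement, and no filter gave 3 for complement. No named gene reversed its direction. Among them Gng13 gained a call under 5 alternatives, Gng8 lost it under 5 and Gng10 under 1.

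Replicate numbers are shared between the groups. The deviations of same-numbered libraries correlated at 0.113, 0.0588 and 0.112 over 11714 genes. Those of libraries with different numbers correlated at -0.110 to 0.00761, so each library correlated best with its own number. The labels do not state a pairing, and the numbers were not taken as pairing in the main fit. Y-linked counts also set replicate 1 apart in both groups. The main fit, without pairing, leaves that difference in the spread within groups. With the replicate block 6124 genes were higher and 6307 lower, histones had 1 lower member, and Gng8 lost its call (adjusted p = 0.0885 in edgeR). Without IP 1 and input 1, an alternative chosen after seeing the data, 5920 were higher and 5944 lower.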
